A study of Macaca mulatta with 2 samples.

Results

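Heat shock proteins and the DNAJ proteins that work with them were followed in Sertoli cell cultures of infant and pubertal rhesus macaques. The members were all probes whose gene name began with HSPA, HSPB, HSPD, HSPE, HSPH, HSP90, DNAJA, DNAJB or DNAJC followed by the gene's number. There were 103 such probes for 61 gene names, of 41000 probes and 30982 names on the array. Of these, 86 probes for 53 genes were well above background in the pubertal RNA of both arrays or in the infant RNA of both, and were tested among 25768 probes. The other 17 member probes were too dim, and for 8 genes no probe was left: DNAJB7, DNAJB8, DNAJC12, DNAJC5B, DNAJC5G, HSPA4L, HSPB3 and HSPB7. A low reading here may mean little RNA or a human probe that binds the macaque transcript poorly.

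Sertoli cells are the somatic nurse cells of the seminiferous tubule. Infant cultures came from testes of males below 3 months of age. The donors of the pubertal cultures were 18 to 22 months old, and in them intermittent GnRH (0.15 µg/min for 2 min at intervals of 3 h, over 4 to 5 weeks) had induced puberty. Every culture, infant or pubertal, received 100 nM testosterone with 5 ng/ml FSH for 24 h, so no hormone-free state was compared. Total RNA from 4 primary cultures was hybridised as 2 pairs, each setting a pubertal against an infant culture of another animal, with dyes swapped: the pubertal RNA carried Cy5 on array 1 and Cy3 on array 2. The probes are 60-base human sequences.

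Chaperones bind unfolded stretches of other proteins and help them reach or regain their shape. HSP70 proteins (HSPA) hold and release clients in a cycle driven by ATP, and DNAJ proteins bring clients to them and speed up that cycle. HSP90 proteins finish the folding of kinases and of steroid receptors, the androgen receptor among them. Small heat shock proteins (HSPB) hold unfolding proteins without using ATP. HSPD1 and HSPE1 form the folding chamber of mitochondria. HSF1 is the transcription factor that turns on the inducible members under heat or protein stress. The testis is kept cooler than the body core, and several members are made mainly by its germ cells.

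Probes on which results below turn are given first, with coordinates on the human build hg17 as the array design lists them. The 8 printed probes lie in unbroken stretches of 60 bases of the genome. Exon annotation of that build was not used here. For HSPB1, 2 of its 3 probes share 41 bases, shown in capitals, so they are not independent readings of the gene.
HSPB1 A_24_P86537 (chr7:75578028-75578087, plus strand): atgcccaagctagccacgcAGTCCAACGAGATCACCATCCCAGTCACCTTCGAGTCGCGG
HSPB1 A_23_P257704 (chr7:75578047-75578106, plus strand): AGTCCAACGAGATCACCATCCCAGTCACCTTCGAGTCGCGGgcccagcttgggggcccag
The inducible HSPA1A and the constitutive HSPA8 are close relatives within the HSP70 family. Their probes below share a stretch of 22 aligned bases with 17 matches, which are in capitals. Of all ungapped alignments of member probes of different genes, only this pair overlapped by at least 20 bases with at least 70% identity.
HSPA1A A_24_P682285 (chr6:31892373-31892432, plus strand): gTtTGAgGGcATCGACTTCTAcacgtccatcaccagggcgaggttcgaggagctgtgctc
HSPA8 A_24_P295745 (chr11:122435629-122435688, minus strand): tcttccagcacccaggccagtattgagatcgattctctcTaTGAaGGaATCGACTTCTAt
The next 4 gave some of the widest differences between arrays. HSP90AB3P is named as a pseudogene of HSP90AB1, and none of its aligned stretches reached that limit against an HSP90AB1 probe.
HSP90AB1 A_24_P170295 (chr6:44325427-44325486, plus strand): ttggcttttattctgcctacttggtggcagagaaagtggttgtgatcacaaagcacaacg
HSP90AB3P A_24_P161525 (chr4:89170455-89170514, plus strand): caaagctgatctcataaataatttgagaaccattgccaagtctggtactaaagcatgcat
DNAJC7 A_23_P60591 (chr17:37387422-37387481, minus strand): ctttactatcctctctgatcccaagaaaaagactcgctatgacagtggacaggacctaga
DNAJB4 A_23_P51339 (chr1:78193792-78193851, plus strand): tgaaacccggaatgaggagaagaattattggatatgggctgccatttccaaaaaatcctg

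No heat shock or DNAJ probe passed the test for a difference between pubertal and infant cultures. The limma fit called 0 of the 86 (0% of the 25768 probes were called higher and 0% lower at an adjusted p below 0.05). The lowest adjusted p of a member was 1.00, against 0.106 for any probe on the array, that of the Sertoli cystatin gene CST9L. With only 2 array pairs the fit had 1 degree of freedom of its own and drew 4.33 more from the spread over all probes, so these data limit what size of difference could be called. At an unadjusted p below 0.05, 1 member probe was higher in pubertal cultures, of DNAJC10 (1.16%, against 2.25% of all tested probes). At that level 2 were lower, of HSPB1 and HSPB8 (2.33%, against 1.79%).

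Counted by size, 0 members were at least 2-fold higher on both arrays, where 0.303% of all tested probes were, and 0 were at least 2-fold lower on both, where 0.299% were. None was at least 2-fold apart in opposite directions on the arrays, against 0.683% of all probes. On 1 array 7 members reached 2-fold, namely DNAJA4, DNAJB4, DNAJB9, DNAJC7, HSP90AB1, HSP90AB3P and HSPA2. That is 8.14% of the members, against 9.51% of all probes that reached it on 1 or both arrays. With the same sign on both arrays, 23 probes (26.7%) were higher and 17 (19.8%) lower, against 23.4% and 21.9% of all probes. These shares lie near the background, so the members as a set did not stand out in these counts.

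Over the members, log2 ratios (pubertal over infant) had medians of -0.01 on array 1 and 0.08 on array 2, beside 0.02 and -0.01 over all tested probes. Single members ranged from -1.03 to 1.57 on array 1 and from -1.37 to 1.59 on array 2. The median gap between a member's readings on the arrays was 0.404, against 0.386 over all probes. The median size of a member's mean over both arrays was 0.240, against 0.166 over all probes.

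**Figure D1:**
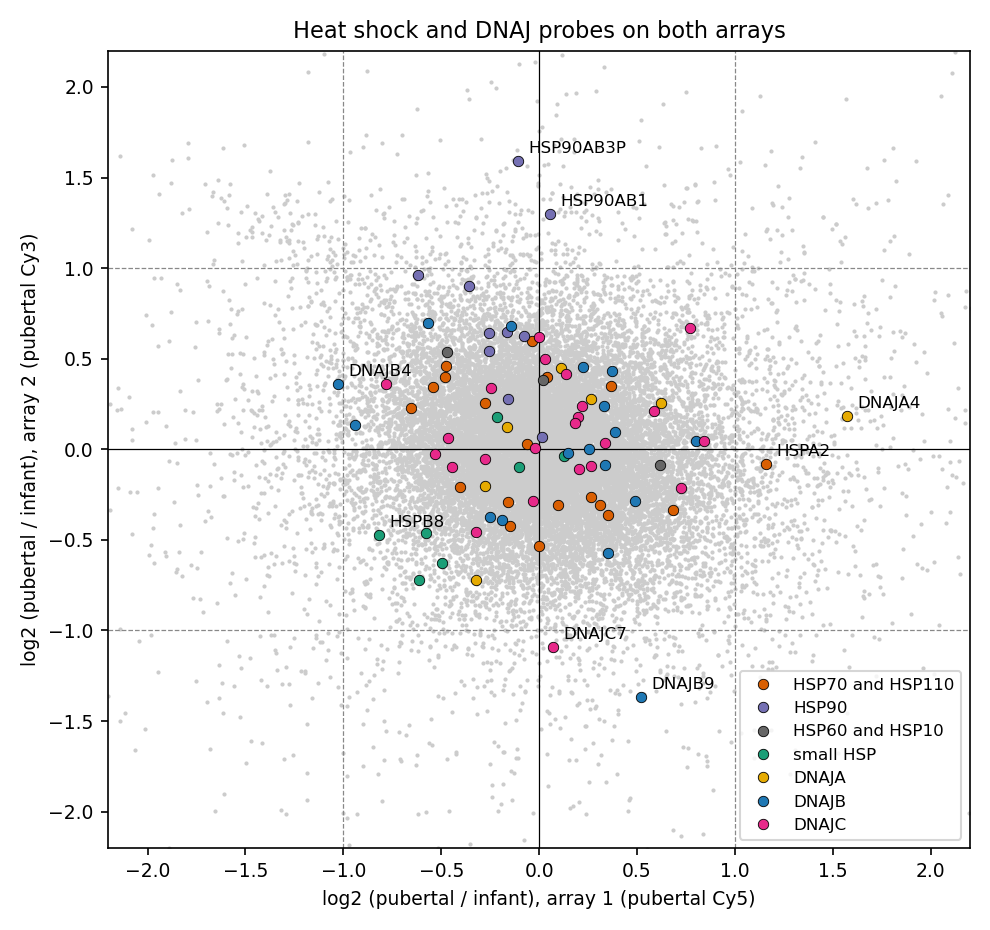
Log2 ratio of pubertal over infant for every tested probe, array 1 on the x axis and array 2 on the y axis. Grey points are all 25768 tested probes (127 lie outside the drawn range), coloured points the 86 heat shock and DNAJ probes by family, dashed lines a 2-fold difference; no coloured point lies beyond 2-fold on both axes.

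The direction of single arrays depended on how the dyes were balanced, which bears on every sign given here. With normexp offset 0 or the scanner's processed signals in place of the loess values reported, 78 of 86 probes kept their sign on both arrays, 20 of them higher and 16 lower. Centring each array on its median without loess left all tested probes at a median of 0.57 on array 1 and -0.37 on array 2. Read relative to those medians, 40 of 86 probes kept their signs across all 4 scalings, 8 of them higher on both arrays and 9 lower. A difference that is tied to the dye has opposite signs on the arrays. It cancels in the mean of both only where it is of equal size on each. The medians of 0.57 and -0.37 were not of equal size, and what is left in the means was not tested.

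Among the small heat shock proteins, which hold unfolding proteins, HSPB1 and HSPB8 were lower in the pubertal culture of each pair. HSPB1, also known as HSP27, protects actin filaments under stress. Its probe A_32_P76247 had a log2 level of 8.92 in the pubertal and 9.53 in the infant culture of array 1, and of 9.73 and 10.45 on array 2. For these levels the mean intensities of the arrays were brought to a common distribution. Cultures are compared only within a pair: both pubertal cultures lay below their infant partner. The log2 ratios were -0.61 and -0.72, with a mean of -0.67 ± 0.24 (SE, n = 2 array pairs), a level 0.630 times that of the infant cultures (limma adjusted p = 1.00).

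The other HSPB1 probes, the overlapping pair printed above, had ratios of -0.50 and -0.63 for A_23_P257704 and of -0.58 and -0.46 for A_24_P86537. All 3 HSPB1 probes were thus lower on both arrays with the loess values, and also with normexp offset 0, the scanner's signals and median centring read relative to all probes. Taken as they stand, the median-centred values were 0.11 and -1.30 for A_32_P76247 and 0.27 and -1.19 for A_23_P257704, so both turned on array 1, while A_24_P86537 gave -0.05 and -0.93.

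HSPB8 works with BAG3 in the disposal of misfolded proteins. The HSPB8 probe read 7.28 in the pubertal and 8.09 in the infant culture of array 1, and 8.24 and 8.72 on array 2. Again both pubertal cultures lay below their partner, by log2 ratios of -0.82 and -0.47. The mean was -0.65 ± 0.25 (SE, n = 2 array pairs; limma adjusted p = 1.00). BAG3 itself had ratios of -0.08 and -0.85.

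Over the family, 7 probes of 5 genes were tested, 0 of them higher on both arrays and 5 lower on both, and 4 of those 5 belong to HSPB1 and HSPB8. The medians over these probes were -0.50 and -0.46, against 0.02 and -0.01 over all probes. Of the 7 probes, 3 are of HSPB1, and both medians are values of its overlapping probes. The medians thus describe HSPB1 more than the family. HSPB9, a testis-expressed member, was the other, with -0.10 and -0.10. HSPB2 (0.13 and -0.04) and HSPB6 (-0.21 and 0.18) had opposite signs. The mean over both arrays was negative for 6 of the 7 probes under each of the 4 scalings. These counts cover only genes named HSPB. CRYAA and CRYAB, small heat shock proteins that the name rule leaves out, had positive means (0.92 and 0.77).

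Markers of fibroblasts and interstitial stroma were lower in the same direction as HSPB1 and HSPB8. Of 11 such genes, both arrays agreed in sign for 10, all of them lower, and 0 passed the adjusted test. The medians were -1.28 and -0.74. Their summed level was 32159 and 46969 in the pubertal cultures, and 79897 and 73239 in the infant cultures. All 11 were above background in all 4 channels. The part of stromal cells in the HSPB1 and HSPB8 values was not tested, and fewer cells of a type cannot be told apart here from less RNA per cell.

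**Figure D2:**
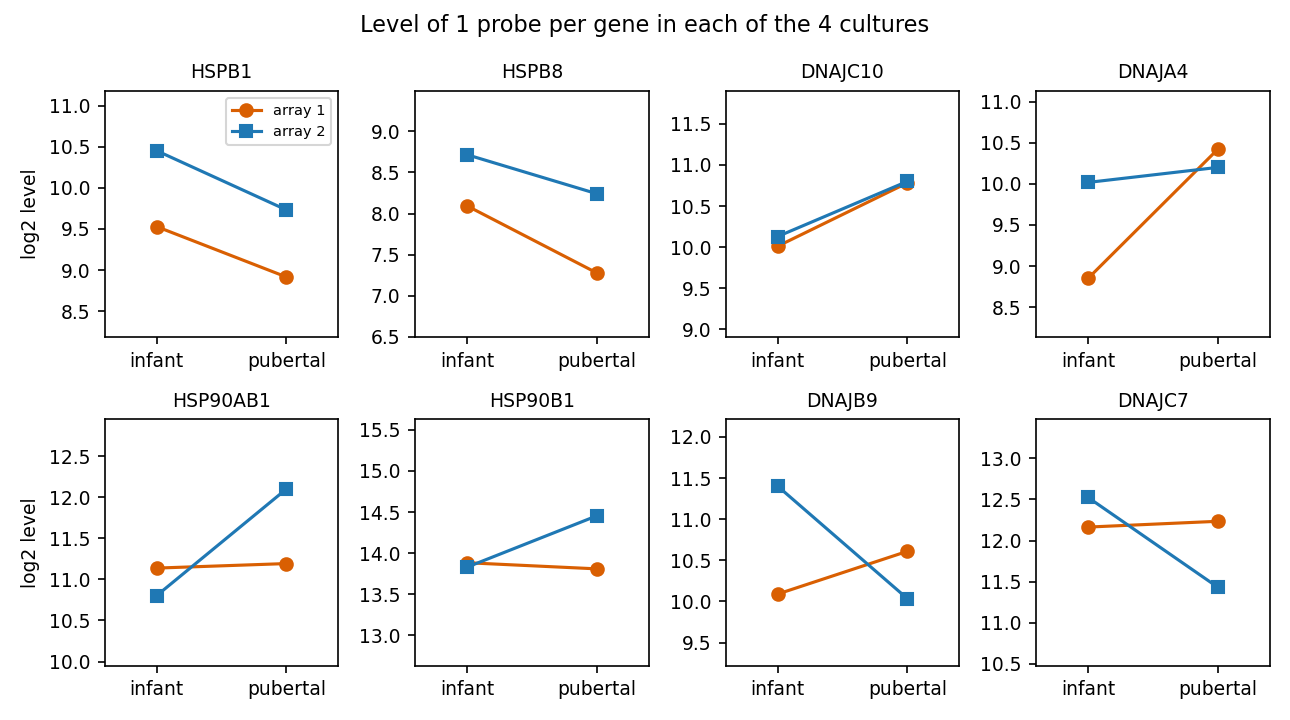
Log2 level of 1 probe for each of 8 genes (y axis) in the infant and pubertal culture of each array (x axis), lines joining the cultures of an array; every panel spans the same log2 range. HSPB1, HSPB8 and DNAJC10 slope the same way on both arrays, while DNAJB9 slopes up on array 1 (0.52) and down on array 2 (-1.37). The probes drawn for HSPB1, DNAJC10, HSP90AB1 and HSP90B1 are not the brightest of their genes.

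With the loess values the HSP90 family gave higher ratios on array 2 than on array 1. All 10 probes of its 4 gene names were higher on array 2, with a median log2 ratio of 0.64, and 8 of them were lower on array 1, where the median was -0.16. None passed the test. The mean over both arrays was positive for all 10 probes under each of the 4 scalings. The sign on array 1 and the order of the arrays were scaling-dependent. With median centring read relative to all probes, 9 of 10 were positive on array 1 and 8 on array 2. The medians were then 0.42 on array 1 and 0.29 on array 2.

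HSP90AB1, the constitutive cytosolic HSP90, had 3 probes. For A_24_P170295, printed above, the pubertal and infant levels were 11.19 and 11.14 on array 1 and 12.10 and 10.80 on array 2. The pair of array 1 lay close together, and in that of array 2 the pubertal culture was the higher. The ratios were 0.05 and 1.30, with a mean of 0.68 ± 0.36 (SE, n = 2 array pairs; limma adjusted p = 1.00).

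Its other probes, A_24_P823684 and A_23_P145089, read -0.62 and 0.96, and -0.16 and 0.65. The pseudogene-named HSP90AB3P had the widest array 2 value of all members: levels were 11.06 pubertal and 11.17 infant on array 1, and 12.12 and 10.53 on array 2. Its ratios were -0.11 and 1.59 (mean 0.74 ± 0.44, SE, n = 2 array pairs). RNA of HSP90AB1 and of its near-identical copies may bind the same probe, so the gene behind that reading is uncertain.

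HSP90AA1, the inducible cytosolic form, had smaller values. Its leading probe read -0.26 and 0.54, and its 3 others ranged from -0.26 to 0.01 on array 1 and from 0.07 to 0.64 on array 2. Probe A_23_P162874 of HSP90AA1 is spotted 10 times on each array, which measures the spotting error. Its ratios were -0.159 ± 0.0947 (SD, n = 10 spots) on array 1 and 0.276 ± 0.0958 (SD, n = 10 spots) on array 2. With the loess values the difference between the arrays was thus larger than the spread between spots. The spots ranged from -0.335 to -0.0542 and from 0.157 to 0.436 without overlap. Median centring read relative to all probes gave 0.43 and -0.09 for this probe, so its signs depend on the scaling. Spots of an array share its RNA and its scaling, and they say nothing of the spread between animals.

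HSP90B1 is the HSP90 of the endoplasmic reticulum. Its unsaturated probe read 13.81 pubertal and 13.88 infant on array 1, and 14.45 and 13.83 on array 2. The pubertal culture was again the higher of the pair on array 2 and slightly the lower on array 1. The ratios were -0.07 and 0.62, and those of its brighter probe were -0.36 and 0.90. That brighter probe was saturated in Cy5 on both arrays.

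**Figure D3:**
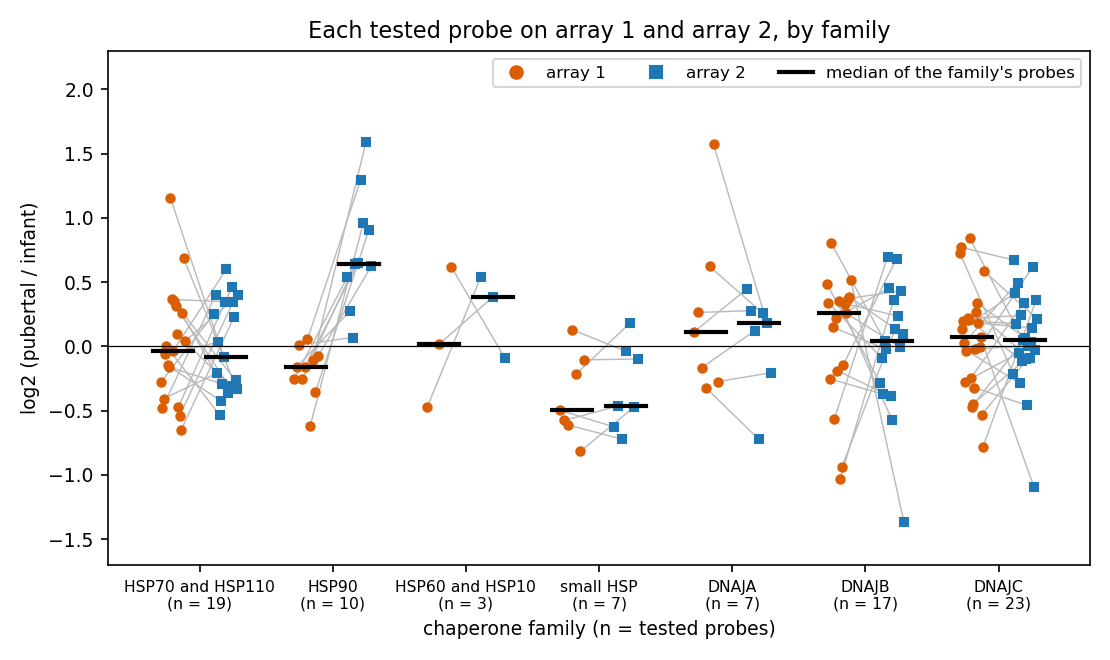
Log2 ratio of pubertal over infant (y axis) of every tested probe on array 1 (circles) and array 2 (squares), joined by a line and grouped by family (x axis), with black bars for medians. The HSP90 probes sit at a median of -0.16 on array 1 and 0.64 on array 2. The small heat shock protein probes, 3 of 7 of them of HSPB1, sit at -0.50 and -0.46.

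In the HSP70 and HSP110 family, 19 probes of 12 genes were tested, 2 of them higher on both arrays and 3 lower on both, while the other 14 had opposite signs. The medians were -0.04 and -0.08. The inducible HSPA1A, the classic sign of heat shock, read 11.58 pubertal and 11.73 infant on array 1, and 11.21 and 11.64 on array 2 with probe A_24_P682285. The pubertal culture was the lower of each pair, and the ratios were -0.15 and -0.42 (mean -0.29 ± 0.25, SE, n = 2 array pairs).

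The other tested HSPA1A probe gave 0.00 and -0.53. The probes bear the name HSPA1A, whose copy HSPA1B differs little, so the copies cannot be told apart. HSPA6, which is nearly silent in many unstressed cells, read 0.10 and -0.31 at a low level. HSPH1, the HSP110 that releases ADP from HSP70, read 0.04 and 0.40.

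HSPA8, the constitutive HSP70, shows how the bright probes behaved. The identical 60-base sequence stands on the array under the names A_23_P24594 and A_24_P287129, which gave -0.47 and 0.46, and -0.54 and 0.34. Both were saturated in the Cy5 channel of each array, that is in the pubertal RNA of array 1 and the infant RNA of array 2. A saturated spot reads at or below its true signal, and what saturation does to these ratios was not tested. Probe A_32_P13728 overlaps them by 42 bases and was not saturated, and it gave 0.26 and -0.26. The fourth HSPA8 probe, printed above, gave -0.65 and 0.23. Means over both arrays lay between -0.21 and -0.00 for the 4 probes, while the sign on single arrays differed between probes of the gene.

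HSPA2, the HSP70 of meiotic germ cells, had levels of 10.34 pubertal and 9.18 infant on array 1, and of 9.38 and 9.46 on array 2. The pubertal culture was the higher of the pair on array 1 and slightly the lower on array 2. The ratios were 1.16 and -0.08 (mean 0.54 ± 0.36, SE, n = 2 array pairs; limma adjusted p = 1.00). Germ cell markers were higher on both arrays for 12 of 12 tested genes, with medians of 0.65 and 0.38. Their summed level was 3626 and 3168 in the pubertal and 1874 and 2024 in the infant cultures, and 4 of the 12 were below background in 1 or more channels. The mean over both arrays was positive for all 12 under each of the 4 scalings, while median centring read relative to all probes left 7 of 12 positive on array 1. The part of germ cells in the HSPA2 values was not tested. Of the members listed as germ cell chaperones, 5 were too dim and 3 were tested, HSPA2 among them. The others tested, HSPA1L (-0.16 and -0.29) and HSPB9 (-0.10 and -0.10), were lower on both arrays, at low levels.

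The mitochondrial chaperones did not share a direction. HSPE1, the lid of the folding chamber, read 14.91 pubertal and 14.29 infant on array 1, and 14.66 and 14.74 on array 2, with ratios of 0.62 and -0.09. HSPD1, the chamber itself, gave 0.02 and 0.38 with its unsaturated probe. Its bright probe, saturated in Cy5 on both arrays, gave -0.47 and 0.54. HSPA9B, the older name of the mitochondrial HSP70 HSPA9, read 0.69 and -0.33. DNAJA3, its DNAJ partner in mitochondria, was lower in both pubertal cultures: 12.37 against 12.69 on array 1 and 12.35 against 13.08 on array 2. The DNAJA3 ratios of -0.32 and -0.72 had a mean of -0.52 ± 0.26 (SE, n = 2 array pairs; limma adjusted p = 1.00).

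For a list of 7 member genes of the endoplasmic reticulum, 10 probes were tested. The list is not complete: it leaves out DNAJB14, which is anchored in that membrane and is given below. Of the 10 probes, 2 were higher and 0 lower on both arrays. Both were of DNAJC10, a DNAJ protein that also reduces disulfide bonds. With its probe A_23_P319133 the DNAJC10 level was 10.78 pubertal and 10.01 infant on array 1, and 10.80 and 10.13 on array 2. Both pubertal cultures lay above their infant partner. The ratios were 0.77 and 0.67, with a mean of 0.72 ± 0.24 (SE, n = 2 array pairs), a level 1.65 times that of the infant cultures (limma adjusted p = 1.00). The brighter DNAJC10 probe gave 0.14 and 0.42, the same direction at a smaller size.

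HSPA5, the HSP70 of this compartment and its stress sensor, had no common direction. Its bright probe read 13.57 pubertal and 13.22 infant on array 1, and 13.47 and 13.83 on array 2, with ratios of 0.35 and -0.36. Its dim probe gave 0.31 and -0.31. DNAJB9, an HSPA5 partner induced by stress in this compartment, had the widest gap of all members. Its levels were 10.61 pubertal and 10.09 infant on array 1, and 10.03 and 11.40 on array 2. The pubertal culture was the higher of the pair on array 1 and the lower on array 2. The ratios of 0.52 and -1.37 gave a mean of -0.42 ± 0.47 (SE, n = 2 array pairs; limma adjusted p = 1.00). DNAJB11 (0.34 and -0.09), DNAJC1 (0.72 and -0.21) and DNAJC3 (-0.02 and 0.01), all HSPA5 partners, had opposite signs too.

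Among the DNAJ proteins of the cytosol and nucleus, DNAJA4 had the widest array 1 value. Its leading probe read 10.42 pubertal and 8.85 infant on array 1, and 10.20 and 10.02 on array 2. The pubertal culture was the higher of each pair, by far more on array 1. The ratios were 1.57 and 0.18, with a mean of 0.88 ± 0.38 (SE, n = 2 array pairs; limma adjusted p = 1.00). The other tested DNAJA4 probe gave 0.62 and 0.26, also higher on both. DNAJA1, a general HSP70 partner, was higher on both arrays with both probes, at 0.26 and 0.28 and at 0.11 and 0.45.

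DNAJB4 and DNAJC7 differed on 1 array each. DNAJB4, a cytosolic HSP70 partner, read 7.99 pubertal and 9.02 infant on array 1 with the probe printed above, and 9.08 and 8.72 on array 2. Its ratios were -1.03 and 0.36, and those of its brighter probe -0.94 and 0.13. DNAJC7 links HSP70 with HSP90 and takes part in steroid receptor folding. It read 12.23 pubertal and 12.16 infant on array 1, and 11.43 and 12.53 on array 2. The pubertal culture was the lower of the pair on array 2 only, and the ratios were 0.07 and -1.09 (mean -0.51 ± 0.35, SE, n = 2 array pairs; limma adjusted p = 1.00). DNAJB1, the inducible partner of HSPA1A, gave 0.49 and -0.28. DNAJB14, anchored in the membrane of the endoplasmic reticulum, gave -0.57 and 0.70 with its leading probe but 0.22 and 0.45 with the other.

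By subfamily, 4 of 7 DNAJA probes were higher and 2 lower on both arrays, 5 of 17 DNAJB probes higher and 2 lower, and 9 of 23 DNAJC probes higher and 5 lower. The median ratios were 0.11 and 0.18 for DNAJA, 0.26 and 0.04 for DNAJB, and 0.07 and 0.05 for DNAJC. With median centring read relative to all probes, the array 2 medians of DNAJA, DNAJB and DNAJC turned to -0.14, -0.17 and -0.10.

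The listed targets of HSF1 did not share a direction. HSPA8 (4 probes) and HSP90AB1 (3 probes), described above as constitutive, are on that list and in its counts. Of 24 probes for 11 genes, 6 were higher on both, 4 lower on both and 14 of opposite sign, with medians of -0.15 and 0.28 and 0 calls. HSPB1, HSPA1A and HSPA6 had negative means over both arrays, and HSPH1, HSPD1, HSPE1, DNAJA1, DNAJB1, HSP90AA1 and HSP90AB1 positive ones. The 4 HSPA8 probes had means between -0.21 and -0.00, and the leading 1 turned positive with the scanner signals and with median centring.

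Of 23 genes with more than 1 tested probe (56 probes), 20 had the same sign of the mean in all their probes, 13 had the same sign on array 1 and 16 on array 2, and 9 on both. The means of a gene's probes spanned a median of 0.147.

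The partners of these chaperones are given from lists of known cofactors, with 1 probe per gene. Of 30 heat shock factors and HSP70 or HSP90 cofactors, 5 were higher and 11 lower in both pairs. The medians were -0.06 and -0.07, and 0 were called. HSF1 gave 0.09 and -0.40 and HSF2 0.07 and 0.74. FKBP4, an HSP90 cochaperone of steroid receptors, gave -0.32 and -0.53, and STIP1, which joins HSP70 to HSP90, -0.67 and -0.13. CHORDC1, an HSP90 cochaperone, gave 0.06 and 1.38. The small heat shock protein CRYAA was higher on both arrays (1.49 and 0.36), and its relative CRYAB gave 1.76 and -0.21.

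The CCT chaperonin, which folds actin and tubulin, gave values like those of HSP90 in sign: 8 of 9 subunit genes were higher on array 2 (median 0.38) and 7 lower on array 1 (median -0.12). With median centring read relative to all probes, 8 of 9 were positive on array 1 and 4 on array 2. Of 19 genes of the unfolded protein response, 2 were higher and 8 lower in both pairs, at medians of -0.07 and -0.37. HERPUD1 (0.16 and -1.60), DDIT3 (-0.07 and -1.33) and ATF4 (-0.10 and -1.14) had negative ratios on array 2, as did DNAJB9 among the members. None of the genes of these lists passed the test.

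**Figure D4:**
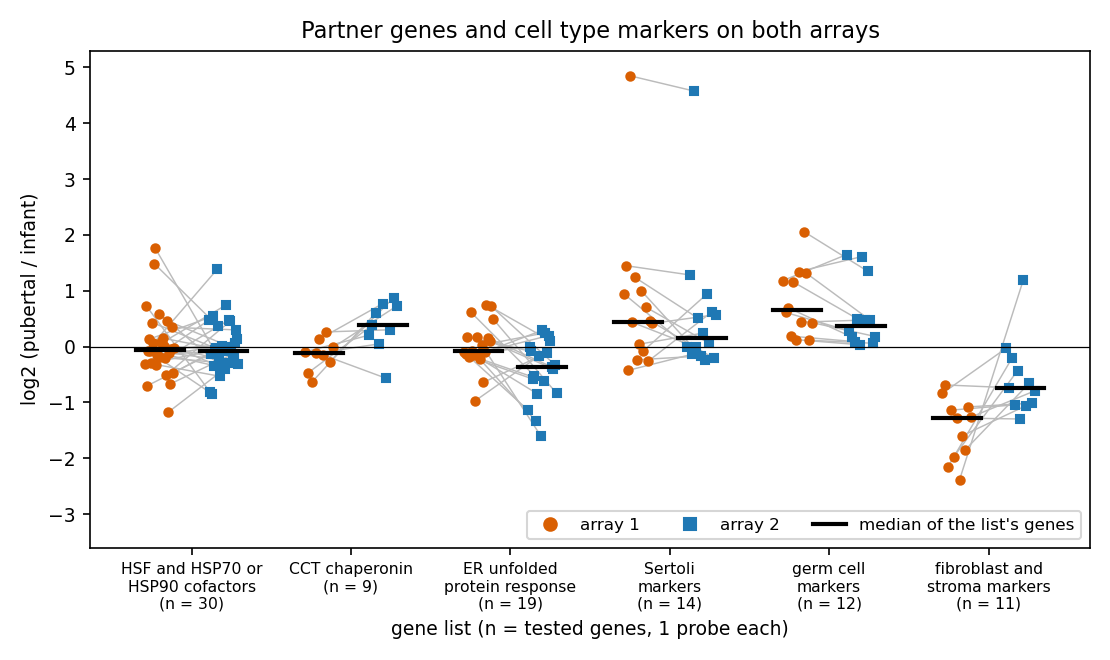
Log2 ratio of pubertal over infant (y axis) for 3 lists of chaperone partners and 3 lists of cell type markers (x axis), each gene by 1 probe on array 1 (circles) and array 2 (squares), with black bars for medians. Stroma markers sit low on both arrays (medians -1.28 and -0.74), and germ cell markers above 0 on both (0.65 and 0.38).

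Of the marker lists, all 14 Sertoli cell genes passed the filter on dim probes, SOX9, WT1, GATA4 and FSHR among them, and 12 of 14 had a positive mean. The summed level of the 14 Sertoli genes was 135636 and 118512 in the pubertal and 106659 and 100562 in the infant cultures. The 6 tested Leydig genes summed to 130727 and 158405 in the pubertal and to 124549 and 82622 in the infant cultures. For 5 myoid genes the sums were 14043 and 32470, and 9768 and 47425. Sums of unlike probes are not shares of cells. Leydig, peritubular myoid, macrophage, endothelial and erythroid lists held 1, 1, 2, 2 and 2 genes higher on both arrays, and 1, 2, 1, 0 and 1 lower. The Leydig gene CYP17A1 gave -2.12 and -1.45. Their part in the members' values was not tested. Between 60.9% and 74.8% of the 43376 spots of a channel were well above background, and the Cy5 channels held 586 and 428 saturated spots against 0 and 2 in Cy3.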

How the data were processed

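Sertoli cell RNA of 4 macaque cultures was measured on 2 two-colour arrays of a human design, read from 1 slide in 1 scan and quantified, as the submitters' processing notes say, by Agilent Feature Extraction 9.5.1.1. Scanner files, as deposited, give mean spot and local background intensity per channel, not normalized. Per the file headers they also hold processed intensities, a log10 ratio of Cy5 over Cy3, and other columns with flags for background, saturation and outliers. The authors' deposited table gives log2 ratios of 4848 probes, and its normalization is not given in the sources used here.

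Intensities were corrected by normexp (offset 50) and normalized by loess within each array in limma 3.58.1 under R 4.3.3, with control spots at weight 0. The offset makes ratios of dim probes smaller. Spots of a probe were averaged, ratios were turned to pubertal over infant, and 15232 of 41000 probes were left out as not well above background. Levels are the log2 signals of each channel after loess and a quantile scaling of mean intensities between arrays (Aquantile). The ratios and the fit did not use that scaling between arrays. All tested probes were fitted by lmFit with eBayes, two-sided, and p-values were adjusted over all of them (Benjamini-Hochberg). The fit was tested on simulated data.

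Members and lists were chosen with earlier results of these data known. Named were the listed HSF1 targets, the listed endoplasmic reticulum members and members past 2-fold on both arrays. Also named were the 10 probes of lowest p and the 10 with the widest gaps. The brightest tested probe of a gene was its leading probe and stood for it under the alternatives. For HSPB1, DNAJC10 and HSP90AB1 the text starts from a dimmer probe, the one of lowest p. The means of their brightest probes were -0.56, 0.28 and 0.24. DNAJB4 starts from its printed probe, and HSP90B1 and HSPD1 from unsaturated probes, which are also dimmer. Other members were named to complete a family after their values were seen. Alternatives covered offset, signals, centring, filters, probes per gene, an intensity trend, saturated spots and each replicate left out. The precision is limited by the 2 arrays. P-values and SEs rest only on the spread between these pairs, moderated by that over all probes.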

Additional observations from a re-analysis of the deposited data

How the results depend on the processing

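No member probe was called under any of the 8 alternatives fitted, where 0 to 5 member probes had an unadjusted p below 0.05. The number of all probes called, 0 as reported, was 1 with normexp offset 0, with median centring, with probes well above background in all 4 channels and with an intensity trend. Median centring moved the members' medians to 0.876 and -0.475, the probes with the same sign on both arrays from 40 to 18, and those 2-fold apart in opposite directions from 0 to 6. Median centring over the tested probes, chosen after seeing the data, gave medians of 0.308 and -0.105. With 1 probe per gene, 23 of 53 had a common sign and the array 2 median was -0.0273. Leaving out a replicate left 3 to 4 members at least 2-fold apart on the other array, with no test. The other filters, the trend, saturated spots and 1 probe per gene leave the ratios of a probe as they are. Of the 78 values of the 26 named genes under the 3 other scalings, 73 kept their direction and 5 of 3 genes reversed. With a replicate left out, 18 of 52 values had the opposite sign to the mean: without replicate 1 those of DNAJB1, DNAJB11, DNAJB4, DNAJC1, DNAJC3, HSPA2, HSPA8 and HSPE1, and without replicate 2 those of DNAJB14, DNAJB9, DNAJC7, HSP90AA1, HSP90AB1, HSP90AB3P, HSP90B1, HSPA5, HSPA6 and HSPD1. With the scanner's signals HSPA5 was 0.00420 and HSPA8 0.0646, and with median centring HSPA5 was 0.194, HSPA8 0.193 and DNAJC3 0.117, where each mean had been -0.01. The cause was not tested. The test was paired by array only: each array sets a pubertal against an infant culture, and its ratio is the unit of the test. The filter kept probes above background in both cultures of 1 age or the other, so dim members are not described.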

Other observations

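The authors' deposited table, by its name one of differential expression, lists 4848 probes, beside 41000 on the array. It held 12 of the 103 member probes, a like share, so the members did not stand out in it. These were of 9 genes: DNAJA4, DNAJB4, DNAJB9, DNAJC7, HSP90AB1, HSP90AB3P, HSPA12B, HSPA2 and HSPB8. In the authors' deposited table HSPB8 stood at -1.24 and -0.54, and HSPA12B, an HSP70-like protein of blood vessels, at -1.34 and -0.52. The leading DNAJA4 probe stood at 1.80 and 0.15 in the authors' deposited table. For all 12 probes the sign on each array was that of the loess values in the report, which for HSPA12B were smaller (-0.41 and -0.21).

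Of 10249 other named genes, those whose ratios lay nearest to those of the HSPB1 probe A_32_P76247, by Euclidean distance over the 2 arrays, were RBM4B (-0.60 and -0.71), JUN (-0.65 and -0.74), RAB11FIP5 (-0.65 and -0.69), NIPSNAP1 (-0.66 and -0.71) and CXCL12 (-0.56 and -0.71). Likeness over 2 values is a description.

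DNAJC12, a member left out for its low signal, was well above background in 1 of its 4 channels, with unfiltered ratios of 0.96 and 0.29.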
